A study of Homo sapiens with 16 samples.

Results

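The levels of 10 genes that mark epithelial and mesenchymal cell states were followed through 16 libraries: CDH1, EPCAM and ESRP1 on the epithelial side, CDH2 and VIM on the mesenchymal side, and the transcription factor genes ZEB1, ZEB2, SNAI1, SNAI2 and TWIST1. They were taken by gene symbol from the count table, in which all 10 were found among 59428 genes. OVCAR3 and UWB1.289 are established ovarian carcinoma cell lines, the former with intact BRCA1 and the latter with a deleterious BRCA1 mutation. Olaparib inhibits PARP enzymes, which act in the repair of DNA strand breaks. OVCAR3 cells received 7.5 µM olaparib or its solvent DMSO, and UWB1.289 cells received 3.5 µM olaparib or DMSO, in each case for 96 h and in 4 replicates. The lines were grown in different media, each is a single line for its BRCA1 status, and so line, BRCA1 status, medium and olaparib dose cannot be told apart in a comparison between the lines. Whether the replicates came from separate cultures is not stated, and p-values measure the spread between these libraries.

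Epithelial cells hold together through E-cadherin, the product of CDH1, and through EPCAM at their lateral membranes. In the epithelial-mesenchymal transition, transcription factors of the ZEB, SNAIL and TWIST families repress epithelial genes and cells gain N-cadherin, encoded by CDH2, and the intermediate filament vimentin, encoded by VIM. ESRP1 is a splicing regulator that maintains epithelial splice forms. The ZEB factors and the microRNAs of the miR-200 family repress each other. Ovarian carcinoma cells often carry markers of both states.

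The seeds of the miR-200 family are shown because ZEB1 and ZEB2 are its best known targets. The mature sequences are those of RefSeq (build GRCh38.p14), and capitals mark bases 2 to 8, the seed. The first pair below shares one seed and the other three microRNAs share another, which differs from it at 1 base.
hsa-miR-141-3p: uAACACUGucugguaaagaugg
hsa-miR-200a-3p: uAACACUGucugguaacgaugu
hsa-miR-200b-3p: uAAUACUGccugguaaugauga
hsa-miR-200c-3p: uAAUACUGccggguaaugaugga
hsa-miR-429: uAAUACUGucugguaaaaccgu

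The letters complementary to these seeds are CAGTGTT and CAGTATT. They were counted on the sense strand in the 3′ untranslated region of 1 canonical transcript per gene in GENCODE release 44. ZEB1 held 6 copies of CAGTATT and 3 of CAGTGTT, and ZEB2 held 5 and 4, so each held 9. Of 19205 transcripts, 8 (0.0417%) held at least as many, ZEB1 and ZEB2 among them. The length of the region, 2540 bases in ZEB1 and 5370 in ZEB2, was not taken into account. ESRP1 held 2 and SNAI2 held 1, and the other 6 genes held 0. The first match in ZEB1 and in ZEB2 is printed with its surroundings, in capitals where it pairs with the seed.
ZEB1: attgttttatcttatCAGTATTatcact
ZEB2: tgcaaaaattttgtaCAGTGTTaaggcc

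A match is a description of letters and not evidence of regulation. The microRNAs themselves were not measured in these libraries, which start at poly(A) tails. MIR200CHG, the transcript from which miR-200c and miR-141 are processed, was measured at low counts. In CPM, its count scaled by library size, it had 3.82 ± 0.247 (SD, n = 4) in UWB1.289 with DMSO, 4.17 ± 1.72 with olaparib, 4.89 ± 1.54 in OVCAR3 with DMSO and 3.08 ± 1.61 with olaparib. The ranges of the 4 groups overlapped. The adjusted p for MIR200CHG was 0.177 for olaparib in OVCAR3, 0.847 for olaparib in UWB1.289 and 0.222 between the lines with DMSO (edgeR's quasi-likelihood test).

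**Figure D1:**
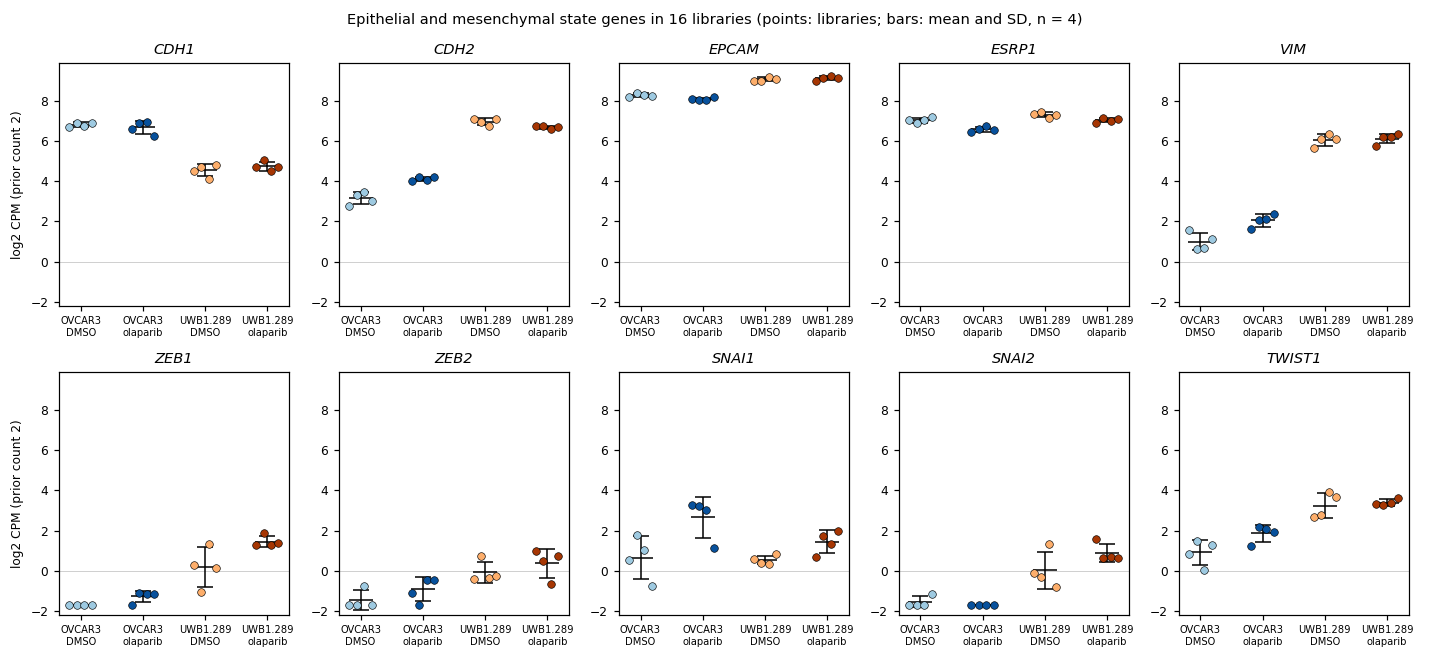
The log2 CPM of each of the 10 genes (vertical axis, prior count 2) in the 16 libraries, grouped by line and treatment. Points are libraries, bars are the mean and SD of 4 libraries. CDH1 sits higher in OVCAR3, CDH2, VIM and TWIST1 sit higher in UWB1.289, and ZEB1, ZEB2 and SNAI2 lie at the bottom of the scale in OVCAR3.

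CPM values below are scaled by TMM factors over all 16 libraries. QuantSeq reads transcripts near their poly(A) tail, so CPM are compared between libraries and not between genes. In edgeR's quasi-likelihood test a gene was called changed where the adjusted p was under 0.1, the fold change over 2 and the mean normalized count over 10. The libraries held 5599571 to 7730228 counts each (median 6413979.5), and no libraries of a group were alike within sampling noise. In cultured cells as in any bulk sample, fewer cells of a type and less RNA per cell cannot be told apart. Of 9 serous ovarian carcinoma markers, all 9 had counts in OVCAR3. In UWB1.289 with DMSO 8 had counts, and WT1 was at 0 in every library. WT1 had 4 counts in the olaparib libraries of UWB1.289 together. The summed markers were 6966 to 7608 CPM in UWB1.289 with DMSO, against 3833 to 4127 CPM in OVCAR3 with DMSO.

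The lines differed in most of these genes before any olaparib. With DMSO, UWB1.289 had lower CDH1 and higher CDH2, VIM and TWIST1 than OVCAR3, while EPCAM was higher and ESRP1 was slightly higher in UWB1.289. Of the 6 genes that passed the filter on low counts, 3 were called higher and 1 lower, and the groups did not overlap in 5. VIM and TWIST1 reached the filter's level of 1.51 CPM in 4 of 4 UWB1.289 libraries and in 2 of 4 OVCAR3 libraries. Their passing thus leaned on the line where they were high, and the count of 3 is a description. Among all 13366 genes tested in this comparison, 38.4% were called, 18.7% higher and 19.7% lower, 79.9% had an adjusted p below 0.1 at any fold and the groups did not overlap in 69.4%, so a call between these lines is common.

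CDH1 encodes the cadherin of epithelial adherens junctions and lies at chr16:68737292-68835537 (hg38, plus strand). It had 103, 122, 107 and 121 CPM in the DMSO libraries of OVCAR3, against 22.9, 25.6, 17.2 and 27.8 CPM in those of UWB1.289. Every OVCAR3 library lay above every UWB1.289 library. The log2 fold change of UWB1.289 against OVCAR3 was −2.27 (SE 0.110, adjusted p = 1.14e-17).

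CDH2 encodes N-cadherin, the cadherin of mesenchymal and neural cells, and lies at chr18:27932879-28177946 (minus strand). Its values were 6.60, 9.61, 10.7 and 7.87 CPM in OVCAR3 with DMSO and 136, 123, 110 and 138 CPM in UWB1.289 with DMSO. It was thus low in OVCAR3 and high in UWB1.289, without overlap. On the log2 scale it differed by 3.86 (SE 0.122, adjusted p = 3.08e-22).

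VIM encodes vimentin, the intermediate filament protein of mesenchymal cells, and lies at chr10:17228241-17237593 (plus strand). OVCAR3 with DMSO had 16, 7, 9 and 13 counts, or 2.64, 1.22, 1.30 and 1.86 CPM. UWB1.289 with DMSO had 49.8, 67.8, 81.4 and 67.8 CPM. VIM showed the largest difference between the lines among the 6 genes tested, with a log2 fold change of 5.23 (SE 0.194, adjusted p = 1.57e-20).

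TWIST1, a basic helix-loop-helix factor that can repress CDH1, lies at chr7:19020991-19117636 (minus strand). It had 1.48, 2.45, 0.722 and 2.15 CPM in OVCAR3 with DMSO and 6.02, 6.49, 14.8 and 12.3 CPM in UWB1.289 with DMSO. The UWB1.289 libraries fell into a lower and a higher pair, both above OVCAR3. It differed by 2.55 on the log2 scale (SE 0.331, adjusted p = 4.80e-08).

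The other epithelial genes did not follow CDH1. EPCAM, an adhesion molecule of epithelia at chr2:47345158-47387601 (plus strand), had 292, 341, 315 and 306 CPM in OVCAR3 with DMSO and 519, 516, 593 and 558 CPM in UWB1.289 with DMSO. It was higher in UWB1.289 in every library, by 0.80 on the log2 scale (SE 0.0690, adjusted p = 1.16e-11), which is under the limit of 2-fold. ESRP1, on chromosome 8, had 135, 119, 131 and 147 CPM in OVCAR3 and 162, 175, 142 and 157 CPM in UWB1.289. These ranges overlapped, and the log2 fold change was 0.25 (SE 0.0800, adjusted p = 0.00560).

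ZEB1, ZEB2 and SNAI2 were close to the limit of what this depth can show. ZEB1, a zinc finger repressor of epithelial genes at chr10:31318495-31529814 (plus strand), had 0 counts in all 4 DMSO libraries of OVCAR3 and 6, 1, 14 and 6 counts in those of UWB1.289. Against a floor of 3 counts over the group, UWB1.289 had at least 8.72-fold more. A count of 0 allows a low level that was not detectable at this depth.

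ZEB2, the paralog of ZEB1 at chr2:144364364-144521057 (minus strand), had 2 counts in OVCAR3 with DMSO, both in replicate 3, and 3, 8, 3 and 4 counts in UWB1.289. The ratio of UWB1.289 to OVCAR3 was 8.72 (95% exact interval 2.09 to 77.5). SNAI2, a SNAIL family repressor on chromosome 8, had 1 count in OVCAR3 with DMSO and 4, 3, 14 and 2 counts in UWB1.289, a ratio of 22.3 (95% exact interval 3.62 to 918). These intervals cover counting error only, and the wide bounds show how little the few counts fix.

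SNAI1, the SNAIL family founder that represses CDH1, lies at chr20:49982980-49988886 (plus strand) and had no such difference between the lines. It had 7, 18, 12 and 2 counts in OVCAR3 with DMSO and 8, 6, 6 and 11 counts in UWB1.289 with DMSO. The ranges overlapped, and the ratio was 0.770 (95% exact interval 0.465 to 1.27, counting error only).

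The olaparib libraries give the same comparison in libraries that the DMSO comparison did not use, although at unequal doses. Of 8 genes tested, 4 were called higher in UWB1.289 and 2 lower, and the groups did not overlap in 7. Of all 13398 genes tested, 36.9% were called, 18.6% higher and 18.3% lower, 76.4% had an adjusted p below 0.1 at any fold and the groups did not overlap in 65.4%. The log2 fold changes were −1.98 for CDH1 (SE 0.151), 2.60 for CDH2 (SE 0.103), 4.15 for VIM (SE 0.170) and 1.56 for TWIST1 (SE 0.233), with adjusted p of at most 8.25e-06.

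With olaparib EPCAM was 2-fold apart, with a log2 fold change of 1.03 (SE 0.0800, adjusted p = 1.57e-09), and ESRP1 differed by 0.44 (SE 0.0922, adjusted p = 3.42e-04) without overlap. SNAI1 was lower in UWB1.289 in this comparison, with a log2 fold change of −1.44 (SE 0.402, adjusted p = 0.00360) and overlapping groups. ZEB1 passed the test at 4.25 (SE 0.556, adjusted p = 1.69e-06) but not the limit on the mean count, and it passed the filter on low counts only through the UWB1.289 libraries. For ZEB2 the ratio was 4.29 (95% exact interval 1.82 to 11.7), and for SNAI2, at 39 counts against 0, the excess in UWB1.289 was at least 14.5-fold.

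Across the 4 groups, CDH2 was the gene whose levels were fully ordered without overlap between neighbours: 127 ± 13.2 CPM in UWB1.289 with DMSO, 104 ± 5.37 in UWB1.289 with olaparib, 17.1 ± 1.20 in OVCAR3 with olaparib and 8.69 ± 1.82 in OVCAR3 with DMSO (SD, n = 4). The pairs of neighbouring groups in this order, taken 1 at a time, did not overlap in 14.7%, 65.4% and 25.7% of all genes tested. How many of all genes were apart at every step was not counted. For CDH1, EPCAM and TWIST1 the 2 treatments of a line overlapped while the lines did not. In CPM the same held for ZEB1 and SNAI2, but on very few counts. The lowest UWB1.289 library had 1 count of ZEB1 (0.166 CPM), as did the highest OVCAR3 library (0.156 CPM). For SNAI2 these were 2 counts (0.263 CPM) and 1 count (0.143 CPM). For ZEB2 the lines overlapped too, since olaparib replicate 3 of UWB1.289 had 0.320 CPM against 0.426 and 0.410 CPM in olaparib replicates 3 and 4 of OVCAR3. VIM was in between, since its treatments overlapped in UWB1.289 and not in OVCAR3. ESRP1 overlapped between neighbours except below UWB1.289 with olaparib, where OVCAR3 with olaparib was lowest. SNAI1 overlapped at every step of its order.

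In OVCAR3, VIM, SNAI1 and TWIST1 rose with olaparib, and CDH2 was higher by almost 2-fold. ESRP1 was lower by less than 2-fold, and for CDH1 no change was detected. Of the 7 genes that passed the filter on low counts, 3 were called, all of them higher, and the groups did not overlap in 3. Among all 13031 genes tested 5.23% were called, 2.90% higher and 2.33% lower, 31.5% had an adjusted p below 0.1 at any fold and the groups did not overlap in 25.7%. VIM, SNAI1 and TWIST1 reached the filter's level of 1.51 CPM in 4 of 4 olaparib libraries and in 2 of 4 DMSO libraries, so their passing leaned on the group where they were high and the count of 3 is a description. With no filter the number of the 10 genes called was also 3.

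SNAI1 changed most, from 7, 18, 12 and 2 counts (1.15, 3.14, 1.73 and 0.286 CPM) with DMSO to 60, 58, 55 and 14 counts (9.30, 9.03, 7.81 and 1.91 CPM) with olaparib. The libraries numbered 4 were the lowest in both groups, and the fourth olaparib library lay below the second DMSO library. The log2 fold change was 2.17 (SE 0.474, adjusted p = 0.00206). With both libraries numbered 4 left out, an alternative chosen after seeing the data, it was 2.13.

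VIM moved from 2.64, 1.22, 1.30 and 1.86 CPM to 2.79, 3.89, 4.12 and 4.78 CPM, on 18 to 35 counts in the olaparib libraries. The groups did not overlap, but the first DMSO and the first olaparib library nearly met. VIM rose by 1.15 on the log2 scale (SE 0.327, adjusted p = 0.0136). VIM with olaparib in OVCAR3 remained far under its level in UWB1.289, whose lowest library had 49.8 CPM.

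CDH2 moved from 6.60, 9.61, 10.7 and 7.87 CPM to 15.7, 18.1, 16.5 and 18 CPM, and the groups were well apart. Its log2 fold change of 0.97 (SE 0.165, adjusted p = 1.93e-04) fell just under the limit of 2-fold. It passed that limit in 4 of 8 refits that each left out 1 library.

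TWIST1 moved from 1.48, 2.45, 0.722 and 2.15 CPM to 2.01, 4.20, 3.98 and 3.55 CPM. The first olaparib library lay among the DMSO libraries. TWIST1 rose by 1.03 on the log2 scale (SE 0.369, adjusted p = 0.0477). The call was lost without DMSO replicate 1 (0.98, adjusted p = 0.109), without DMSO replicate 3 (0.77, adjusted p = 0.157), without olaparib replicate 2 (0.92, adjusted p = 0.128) and without olaparib replicate 3 (0.96, adjusted p = 0.101).

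On the epithelial side, ESRP1 had 135, 119, 131 and 147 CPM with DMSO and 87.1, 98.6, 108 and 94.5 CPM with olaparib. All olaparib libraries were lower, with a log2 fold change of −0.45 (SE 0.0869, adjusted p = 6.34e-04). EPCAM differed by −0.18 (SE 0.0717, adjusted p = 0.0755), from 314 ± 20.7 to 276 ± 11.7 CPM (SD, n = 4), with overlapping groups. CDH1 had 98.4, 120, 126 and 76.1 CPM with olaparib, which spread around the DMSO values of 103 to 122 CPM. Its log2 fold change was −0.10 (SE 0.119, adjusted p = 0.579).

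ZEB1, ZEB2 and SNAI2 were not tested in OVCAR3, since they did not pass the filter. With olaparib ZEB1 had 0, 1, 1 and 1 counts, ZEB2 had 1, 0, 3 and 3 and SNAI2 had 0 in each library. The ratio of olaparib to DMSO for ZEB2 was 3.30 with a 95% exact interval of 0.629 to 32.6.

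**Figure D2:**
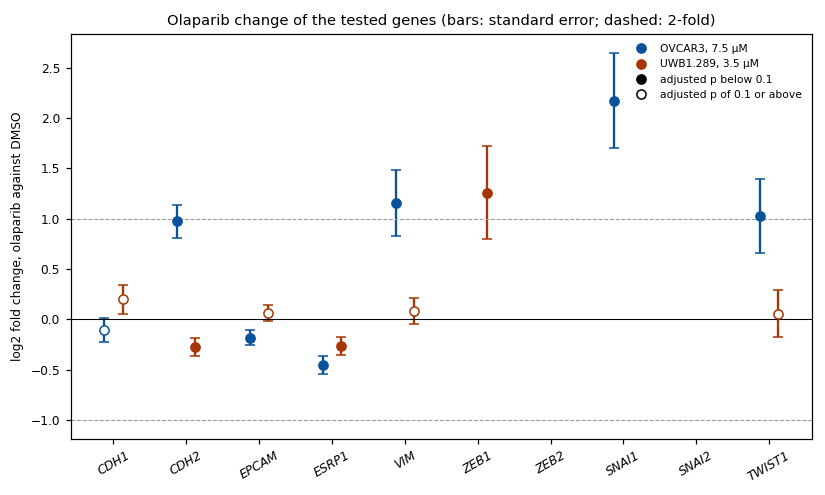
The log2 fold change of olaparib against DMSO (vertical axis) for the genes that were tested in OVCAR3 (blue) and UWB1.289 (brown). Bars are standard errors, filled points have an adjusted p below 0.1, open points do not, and dashed lines mark 2-fold. CDH2 and VIM lie near or above the upper line in OVCAR3 (0.97 and 1.15) and close to 0 or below it in UWB1.289 (−0.28 and 0.09).

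In UWB1.289 with olaparib, 3 of the 7 genes tested had an adjusted p below 0.1. CDH2 and ESRP1 were lower by less than 2-fold, and ZEB1 was called higher on few counts. Of the 7 genes that passed the filter on low counts, 1 was called, and the groups did not overlap in 2. Among all 12748 genes tested 2.21% were called, 1.93% higher and 0.282% lower, 13.9% had an adjusted p below 0.1 at any fold and the groups did not overlap in 14.7%.

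CDH2 had 136, 123, 110 and 138 CPM with DMSO and 109, 108, 97.3 and 103 CPM with olaparib. The groups were apart by a small margin, and the log2 fold change was −0.28 (SE 0.0889, adjusted p = 0.0532). Over the 8 refits that each left out 1 library it ranged from −0.34 to −0.23, with adjusted p up to 0.177. ESRP1 had 162, 175, 142 and 157 CPM with DMSO and 119, 141, 131 and 138 CPM with olaparib. Its groups were also just apart, at −0.26 (SE 0.0868, adjusted p = 0.0616). In the same refits the log2 fold change of ESRP1 ranged from −0.31 to −0.21, with adjusted p up to 0.200.

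ZEB1 had 6, 1, 14 and 6 counts with DMSO and 13, 19, 13 and 15 with olaparib. The third DMSO library lay among the olaparib libraries. The log2 fold change was 1.26 (SE 0.461, adjusted p = 0.0934), and ZEB1 passed the filter through the olaparib libraries, of which 4 of 4 reached 1.57 CPM against 1 of 4 with DMSO. The call was lost with DESeq2 (adjusted p = 0.109), with all 16 libraries in the fit (adjusted p = 0.103) and in every refit that left out 1 library except the one without DMSO replicate 3, with log2 fold changes from 0.93 to 1.92 and adjusted p up to 0.241 over the 8 refits. ZEB1-AS1, which overlaps ZEB1 on the opposite strand, had 53 counts in UWB1.289 with DMSO and 29 with olaparib, and the strand setting of the counting is not given in the sources used here.

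SNAI1 in UWB1.289 had 8, 6, 6 and 11 counts with DMSO and 8, 17, 14 and 24 with olaparib. The first olaparib library equalled a DMSO library and the others were higher. The ratio was 2.20 (95% exact interval 1.41 to 3.50, counting error only). SNAI1 was not tested, since it did not pass the filter, and with no filter its log2 fold change was 1.12 (SE 0.430, adjusted p = 0.120). It was called in the refit without olaparib replicate 1, at 1.35 (adjusted p = 0.0301).

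For the other genes tested in UWB1.289 no change was detected. The log2 fold changes were 0.20 for CDH1 (SE 0.148, adjusted p = 0.456), 0.06 for EPCAM (SE 0.0771, adjusted p = 0.667), 0.09 for VIM (SE 0.130, adjusted p = 0.747) and 0.06 for TWIST1 (SE 0.235, adjusted p = 0.922). TWIST1 had 6.02, 6.49, 14.8 and 12.3 CPM with DMSO against 9.88, 9.23, 10.1 and 11.9 CPM with olaparib, so the olaparib libraries lay inside the range of the DMSO libraries. ZEB2 and SNAI2 did not pass the filter and were not tested. ZEB2 had 10, 6, 2 and 9 counts with olaparib and SNAI2 had 16, 7, 8 and 8. Their ratios to DMSO were 1.62 (95% exact interval 0.862 to 3.13) and 1.84 (1.07 to 3.22), for counting error only.

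Whether the lines differed in their response to olaparib was tested as an interaction over all 16 libraries, which are also those of the comparisons above. For CDH2 and VIM it was called: the effect in UWB1.289 minus that in OVCAR3 was −1.25 for CDH2 (SE 0.167, adjusted p = 6.69e-06) and −1.07 for VIM (SE 0.328, adjusted p = 0.0413). Of all 14243 genes tested 3.66% were called in this contrast, with 1.66% down, and 10.9% had an adjusted p below 0.1 at any fold, and of the 8 genes tested here 2 were, both down. The VIM call was lost in 5 of 16 refits: without OVCAR3 DMSO replicate 2 or 3, OVCAR3 olaparib replicate 4, UWB1.289 DMSO replicate 3 or UWB1.289 olaparib replicate 1. The log2 difference over the 16 refits ranged from −1.32 to −0.94, with adjusted p up to 0.118.

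For the other 6 genes no difference between the lines was shown. SNAI1 differed by −1.04 (SE 0.706, adjusted p = 0.433) and TWIST1 by −0.98 (SE 0.448, adjusted p = 0.205), with errors too wide to say that the lines responded alike. ESRP1 differed by 0.19 (SE 0.123, adjusted p = 0.396), CDH1 by 0.30 (SE 0.201, adjusted p = 0.420), EPCAM by 0.25 (SE 0.103, adjusted p = 0.158) and ZEB1 by −1.49 (SE 1.23, adjusted p = 0.547).

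**Figure D3:**
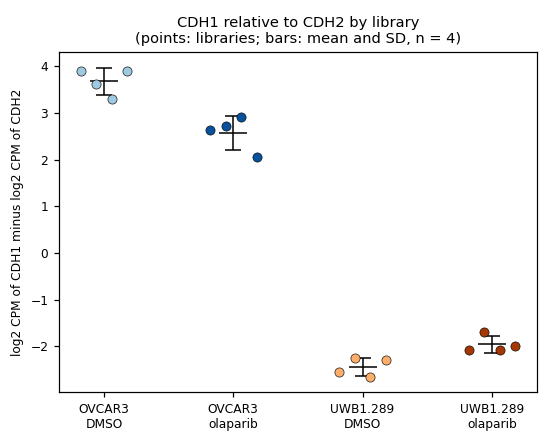
The log2 CPM of CDH1 minus the log2 CPM of CDH2 in each library (vertical axis), by line and treatment. Points are libraries, bars are the mean and SD of 4 libraries. With olaparib the OVCAR3 libraries lie lower and the UWB1.289 libraries higher than with DMSO.

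The balance of the cadherins was taken per library as log2 CPM of CDH1 minus that of CDH2, a value that compares libraries and whose 0 has no meaning. It was 3.67 ± 0.289 in OVCAR3 with DMSO (3.29 to 3.90) and 2.58 ± 0.365 with olaparib (2.06 to 2.91). In UWB1.289 it was −2.44 ± 0.197 with DMSO (−2.65 to −2.24) and −1.96 ± 0.178 with olaparib (−2.07 to −1.70; SD, n = 4). Within each line the treatments did not overlap, and the groups moved in opposite directions. No test was run on this value.

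The genes around these 10 were taken from lists of known function. Of 36 genes of the mesenchymal programme, 28 were tested between the lines with DMSO, of which 19 were higher in UWB1.289 and 5 lower. Over all genes tested 18.7% were called higher and 19.7% lower. The list had a median log2 fold change of 2.40 against −0.02 over all genes. FN1, the matrix protein fibronectin, had 7.58 to 11.2 CPM in OVCAR3 and 1544 to 1846 CPM in UWB1.289 (log2 fold change 7.40, adjusted p = 2.31e-30). TAGLN, an actin-binding protein of smooth muscle, was also higher (6.67), and THY1, a surface protein of fibroblasts, had 244 counts in UWB1.289 against 2 in OVCAR3, a ratio of 118 (95% exact interval 32.4 to 982). The 5 lower genes included the ligand WNT5A at −4.16 and the collagen gene COL1A1 at −2.68. LOXL2, a lysyl oxidase, had 1 count in UWB1.289 against 101 in OVCAR3, a ratio of 0.00959 (95% exact interval 0.000241 to 0.0547). THY1 and LOXL2 passed the filter on low counts only through the line where they were high. The counts of called genes and the median of this list are thus a description.

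Of 32 genes of the epithelial programme, 31 were tested between the lines with DMSO, 4 were higher in UWB1.289 and 8 lower, with a median of −0.65. Lower genes included the desmosomal cadherin DSC2 (−2.65), the epithelial transcription factor ELF3 (−2.64) and the protease inhibitor SPINT2 (−1.97). Higher ones included OVOL1, a transcription factor of epithelia that can repress ZEB1 (1.97). In all 12 of the 31 were called, a share near the 38.4% over all genes tested.

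Among 17 cadherin partners and nectins, 16 were tested, 2 were higher and 7 lower. These 9 of 16 stand against 38.4% called over all genes tested. NECTIN4, a junctional adhesion molecule, and the alpha-catenin gene CTNNA2 had log2 fold changes of −5.04 and −5.49. NECTIN1 had 2 counts in UWB1.289 against 164 in OVCAR3, a ratio of 0.0118 (95% exact interval 0.00142 to 0.0434). The genes PKP4 and VCL, for a plakophilin and vinculin, were higher by 1.33 and 1.12. Of 14 splicing regulators beside ESRP1, 12 were tested, 3 were higher and 0 lower by the same limits. These 3 of 12 stand against 38.4% called over all genes. At any fold 8 were higher and 4 lower at an adjusted p below 0.1, against 79.9% of all genes. CELF2 had 0 counts in all OVCAR3 libraries and 5921 in those of UWB1.289 with DMSO, which puts it at least 1913-fold higher. NECTIN1 and CELF2 passed the filter on low counts only through the line where they were high, so the counts of both lists are a description. QKI, which counters epithelial splicing, was higher by 1.25 and MBNL3 by 1.33.

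Of 26 relatives and partners of the transcription factors, 20 were tested between the lines with DMSO, 3 were higher and 5 lower. These 8 of 20 are again a share near the 38.4% over all genes. TWIST2, the paralog of TWIST1, had 0 counts in OVCAR3 with DMSO against 169 in UWB1.289, at least 54.6-fold higher. SOX9, a factor of progenitor cells, was higher by 2.74. TCF4, a basic helix-loop-helix factor known to promote mesenchymal states, was lower at −2.12. The homeobox gene PRRX2 had 3 counts in UWB1.289 against 486 in OVCAR3, a ratio of 0.00598 (95% exact interval 0.00123 to 0.0176). TWIST2 and PRRX2 passed the filter on low counts only through the line where they were high, so the counts of this list are a description. Among 8 relatives of VIM 0 were higher and NES was lower (−3.80). Of 12 noncoding hosts and antisense genes 4 were tested, 0 were higher, and MIR205HG, the host of miR-205, was lower (−2.74). Calls in these last lists were thus 1 of 8 and 1 of 4, against 38.4% over all genes.

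Markers of other cell types were read in the same libraries. Of 5 fibroblast markers, DCN, LUM and PDGFRB were at 0 in UWB1.289 with DMSO, and the summed level of 43.8 to 60.8 CPM there, against 22.2 to 30.6 CPM in OVCAR3, came mostly from COL1A2, which is also in the mesenchymal list. The summed leukocyte markers were 6.32 to 9.40 CPM in UWB1.289 and 1.15 to 2.10 CPM in OVCAR3 with DMSO, with CD3E at 0 in UWB1.289 and PTPRC at 162 counts. The 4 endothelial markers summed to 5.87 to 11.5 CPM against 0.578 to 2.27, and the 4 mesothelial markers to 29.3 to 33.9 CPM against 1.3 to 3.03, mostly from PDPN. Their part in the differences between the lines was not tested.

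**Figure D4:**
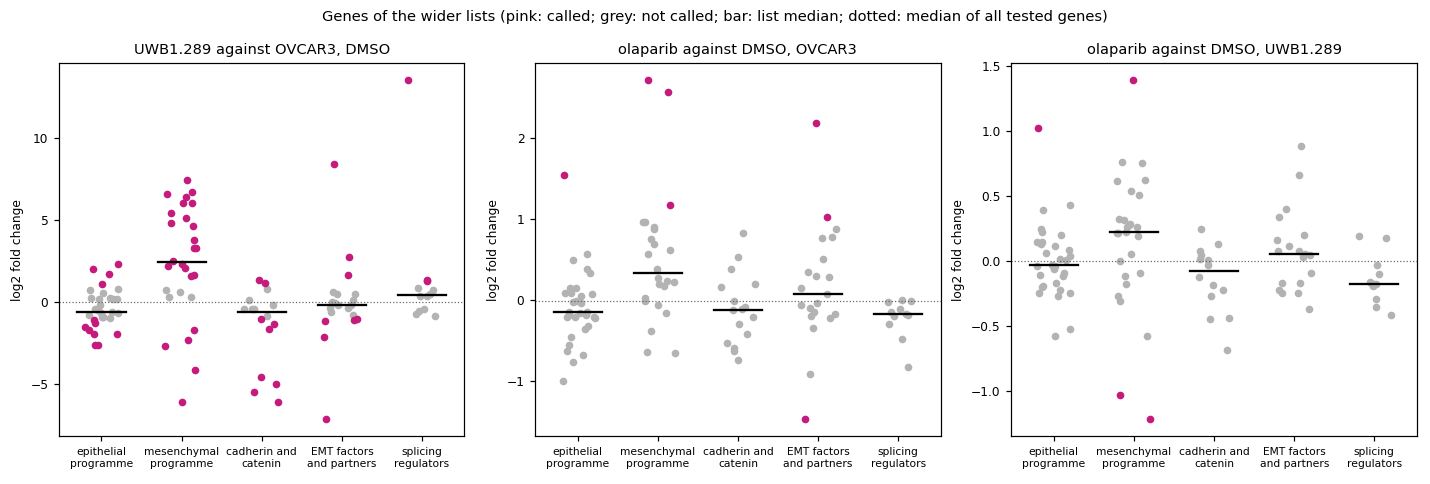
The log2 fold changes (vertical axes, on different scales) of the tested genes of 5 lists, for UWB1.289 against OVCAR3 with DMSO (left) and for olaparib against DMSO in OVCAR3 (middle) and UWB1.289 (right). Pink points were called and grey points were not, bars are list medians and the dotted line is the median of all genes tested. The mesenchymal programme stands high between the lines (median 2.40), and few genes of any list were called with olaparib.

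With olaparib in OVCAR3, 24 genes of the mesenchymal programme were tested, of which 3 rose by more than 2-fold and 0 fell. At any fold 13 were higher and 1 lower at an adjusted p below 0.1, against 31.5% of all genes. The median of the list was 0.33 against −0.01 over all genes, of which 2.90% were called higher and 2.33% lower. FN1 rose from 7.58, 11.2, 11 and 10.2 CPM to 54.7, 73.2, 61.8 and 47.0 CPM, with a log2 fold change of 2.57 (SE 0.151, adjusted p = 3.11e-10). TNC, the matrix protein tenascin C, rose by 1.18. TGFBI, a matrix protein induced by TGF-beta, rose by 2.71, from 1 to 4 counts in the DMSO libraries to 16 to 20 in the olaparib libraries. It passed the filter on low counts only through the olaparib libraries, so its call is a description, and its mean count of 10.1 fell under the limit without any 1 of them.

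Among the transcription factor relatives 21 were tested in OVCAR3 with olaparib, 2 rose and 1 fell, against 2.90% and 2.33% of all genes. SOX9 rose from 8.74, 9.61, 9.10 and 8.30 CPM to 47.1, 39.9, 33.4 and 41.8 CPM (log2 fold change 2.18, SE 0.137, adjusted p = 5.72e-10). SMAD3, which carries TGF-beta signals to the nucleus, rose by 1.02, close to the limit, and missed it without DMSO replicate 1 (0.95) or olaparib replicate 2 (0.99). TCF4 fell, with a log2 fold change of −1.47.

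In the epithelial list 31 were tested in OVCAR3 with olaparib. At any fold 5 were higher and 10 lower at an adjusted p below 0.1, against 31.5% of all genes. By all the limits 1 rose and 0 fell, while 5.23% of all genes were called. The one that rose was OVOL1, from 2.61 ± 0.528 to 7.72 ± 1.15 CPM (SD, n = 4; log2 fold change 1.55, adjusted p = 8.40e-05). ESRP2, the paralog of ESRP1, had a log2 fold change of −0.77 (adjusted p = 0.00534), and RBM47, another epithelial splicing regulator, one of −0.83 (adjusted p = 2.40e-06), both under the limit of 2-fold as for ESRP1. NES, which encodes the intermediate filament nestin, rose by 1.46 and was the 1 gene called among 8 relatives of VIM. Of 16 cadherin partners and of 11 splicing regulators 0 were called in either direction. At any fold 9 and 3 had an adjusted p below 0.1, against 31.5% of all genes. The summed fibroblast markers were 22.2 to 30.6 CPM with DMSO and 30.6 to 39.3 CPM with olaparib, with LUM at 0, DCN at 1 count in each group and nearly all from COL1A1. The summed serous carcinoma markers were 3833 to 4127 CPM with DMSO and 2363 to 2614 CPM with olaparib. The part of these markers in the changes was not tested. Of the noncoding genes 3 were tested and 1 was called lower, MIR205HG (−1.11, adjusted p = 0.0290), with overlapping groups.

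With olaparib in UWB1.289, 27 mesenchymal genes were tested, 1 rose and 2 fell. Over all genes tested 1.93% were called higher and 0.282% lower. COL1A2 fell by 1.03 on the log2 scale, and without DMSO replicate 3 or olaparib replicate 1 it missed the limit of 2-fold (−0.95 and −0.96). WNT5A had a log2 fold change of −1.22 (adjusted p = 0.0712) that lost its call in 6 of 8 refits. Of 31 epithelial genes 1 rose, the mucin gene MUC1 (1.02), which lost its call without DMSO replicate 1 or 3 or olaparib replicate 2, and 0 fell. The transcription factor relatives, cadherin partners, splicing regulators and intermediate filament genes gave 0 calls among 19, 14, 12 and 7 tested. Of these, 4, 3, 3 and 4 had an adjusted p below 0.1, against 13.9% of all genes. The 2 noncoding genes tested also gave 0 calls. The summed fibroblast markers were 43.8 to 60.8 CPM with DMSO and 25.2 to 31.6 CPM with olaparib, mostly from COL1A2 itself, with DCN and LUM at 0.

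Some of these genes differed between the lines in their response. In the interaction, FN1 differed by −2.37 (SE 0.160, adjusted p = 2.33e-11), TGFBI, at 1 to 4 counts in OVCAR3 with DMSO, by −2.09, CAV1 by −1.08, SOX9 by −2.07, OVOL1 by −1.32 and TCF4 by 1.22 (UWB1.289 effect minus OVCAR3 effect). Apart from TCF4, which fell in OVCAR3, the named effects were thus higher in OVCAR3, where FN1, SOX9 and OVOL1 started from lower levels than in UWB1.289. CAV1 missed the limit of 2-fold without OVCAR3 olaparib replicate 2 (−0.999).

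Genes whose levels moved most like those of the 10 were sought by Pearson's r of log2 CPM after subtracting each line's mean, over 16 libraries and 11669 or 11670 genes. The points share line, treatment and library, so r is a description. For CDH2 these were NIBAN1 (0.934), LRRC59 (0.919) and CCND1 (0.918), for ESRP1 TMEM106B (0.937), INHBB (0.928) and NIPSNAP2 (0.927), and for SNAI1 TICAM1 (0.936), ZFP36L2 (0.909) and COTL1 (0.904). For VIM they were TSC22D2, TOB2 and ATXN1 (0.879 to 0.881), for TWIST1 DIAPH1, NUP50 and REEP6 (0.839 to 0.853), for EPCAM PHACTR2, WDR73 and RABL2B (0.82 to 0.83) and for ZEB1 DGAT2, AAGAB and HRH1 (0.822 to 0.827). Among the 10 themselves, r was 0.701 for VIM with TWIST1, 0.659 for ZEB1 with SNAI2, 0.587 for CDH2 with SNAI1 and −0.701 for ESRP1 with SNAI1. CDH1 had no r beyond 0.269 in either direction with any other of them.

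Promoters were read from RefSeq (build GRCh38.p14), where 4 of the 10 genes (CDH2, VIM, ZEB1 and ZEB2) had 11 entries. They were searched over the 250 bases before the start for CACCTG, the E-box bound by SNAIL and ZEB factors, on both strands, and for CANNTG, which includes it and reads the same on both strands. Of 35116 windows of this length 17.5% held CACCTG and 61.8% held CANNTG. The windows of VIM and CDH2 are printed because both genes were higher with olaparib in OVCAR3 and had entries. SNAI1 and TWIST1, which also rose there, had none.
VIM, chr10:17227991-17228240, plus strand: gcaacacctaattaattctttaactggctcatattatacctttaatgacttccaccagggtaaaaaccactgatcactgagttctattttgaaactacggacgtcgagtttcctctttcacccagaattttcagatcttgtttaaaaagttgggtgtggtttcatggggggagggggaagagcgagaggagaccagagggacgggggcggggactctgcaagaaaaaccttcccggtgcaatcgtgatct
CDH2, chr18:28177131-28177380, minus strand: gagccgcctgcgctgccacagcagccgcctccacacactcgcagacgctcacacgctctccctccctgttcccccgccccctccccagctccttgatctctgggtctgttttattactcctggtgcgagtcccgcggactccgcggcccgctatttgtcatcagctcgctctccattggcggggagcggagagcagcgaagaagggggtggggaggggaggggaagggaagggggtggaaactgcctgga

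Neither window held CACCTG or CANNTG, which says only that these letters are not in these 250 bases. A downstream start of CDH2 had CAGATG with its first base at −97 from the start. Of the 7 ZEB1 entries 2 held CACCTG and 4 held CANNTG, and the 1 ZEB2 entry held CANNTG but not CACCTG.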

How the data were processed

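QuantSeq 3′ libraries were sequenced from both lines under each treatment, 4 per group. The authors trimmed reads (BBDuk), used STAR 2.7.9a for alignment to hg38, counted reads per gene with featureCounts 2.0.0 and GENCODE annotation, and deposited raw counts that were not normalized. Strand and multimapping settings are not given in the sources used here. Of 59428 genes 30099 had 0 counts throughout.

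The counts were fitted with edgeR 4.0.16 under R 4.3.3 (TMM, filterByExpr and the quasi-likelihood test, with Benjamini-Hochberg adjustment over all genes tested) on the libraries of each comparison, and over all 16 for the interaction. The limits were an adjusted p below 0.1, more than 2-fold and a mean normalized count above 10. The fitting was checked on simulated counts, with changes of 2 on the log2 scale in genes with a mean count above 50. This check did not cover smaller changes at lower counts, as for VIM, TWIST1 and ZEB1 with olaparib. Ratios of low counts have 95% exact intervals for counting error only. From each list the text names up to 3 genes per direction with groups that do not overlap; ESRP2, RBM47, MIR200CHG, MIR205HG in OVCAR3, ZEB1-AS1 and the markers were named for their roles after their values were seen. Some genes that this rule names are not reported here. The 10 genes and the lists were chosen with earlier results of these data known. Alternatives were DESeq2 1.42.0, its size factors, no low-count filter, a mean count above 50, no fold limit, an adjusted p below 0.05, all 16 libraries, the replicate number as a block, leaving out each library, and 0.5 as prior count.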

Additional observations from a re-analysis of the deposited data

Results flagged for a closer look

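A library was set apart in its group where its gap to the nearest other library was a large share of the group's range (Dixon's test at 95%), which chance does in about 1 in 20 groups. This held in 6 of 38 gene and group pairs, on log2 CPM. SNAI1 in OVCAR3 olaparib replicate 4 was at 1.152 with 14 counts, while the other 3 libraries lay between 3.02 and 3.26. The other 5 rest on few counts: ZEB1 in OVCAR3 olaparib replicate 1 at −1.70 with 0 counts, ZEB2 in OVCAR3 DMSO replicate 3 at −0.745 with 2 counts, ZEB2 in UWB1.289 DMSO replicate 2 at 0.7134 with 8 counts, SNAI2 in OVCAR3 DMSO replicate 4 at −1.149 with 1 count and SNAI2 in UWB1.289 olaparib replicate 1 at 1.557 with 16 counts.

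The response to olaparib differed between the lines in the interaction test for CDH2, by −1.248 on the log2 scale (adjusted p = 6.69e-06), and for VIM, by −1.070 (adjusted p = 0.0413). CDH2 was higher with olaparib in OVCAR3 and lower in UWB1.289 with groups that did not overlap in either line. The change in UWB1.289 was small (−0.28), and its adjusted p rose up to 0.177 when 1 library was left out. The doses differed between the lines, so dose and line cannot be told apart here.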

How the results depend on the processing

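Of the 10 genes, the number called for olaparib in OVCAR3 went from 3 to 0 with a mean count above 50 and to 6 with no fold limit, and was 2 to 4 when 1 library was left out. In UWB1.289 it went from 1 to 0 with DESeq2, a mean count above 50, an adjusted p below 0.05 or all 16 libraries, to 3 with no fold limit, and was 0 to 1 when 1 library was left out. In the interaction it was 1 to 2 when 1 library was left out. With a mean count above 50 and with no fold limit, all genes called went from 682 to 285 and 4066 in OVCAR3, from 282 to 141 and 1760 in UWB1.289, from 5127 to 3245 and 10497 between the lines with DMSO, from 4939 to 3078 and 10036 between them with olaparib and from 521 to 297 and 1521 in the interaction. These limits act by their own construction, and other causes were not tested.

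Uncalled log2 fold changes near 0 changed sign: CDH1 in OVCAR3 was 0.0585 without both libraries numbered 4 and −0.192 to 0.0252 when 1 library was left out, and in UWB1.289 VIM was −0.0285 to 0.195 and TWIST1 −0.120 to 0.303. Of the results of the 10 genes under settings other than leaving out a library, 268 kept their direction and side of the limits, 10 lost a call and 8 gained one.

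Replicate numbers were not taken as pairs. Same-numbered DMSO and olaparib libraries had correlations of 0.0305 to 0.113 in OVCAR3 and 0.0995 to 0.185 in UWB1.289, where every library correlated best with its own number. With the replicate number as a block, 3, 1, 4, 6 and 2 of the 10 genes were called in the 5 comparisons, as without it, and 688, 294, 5145, 4960 and 537 of all genes. Depth limits ZEB1, ZEB2 and SNAI2, with at most 19 counts in a library.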
